A study of Homo sapiens with 18 samples.

Results

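The genes described here are 59 neighbours on the long arm of human chromosome 13, from SHISA2 to FOXO1, of which 55 were measured among the 18417 genes of the series. They were chosen by measured array signals, because runs of neighbouring genes in this stretch had lower signal in cells carrying GRα than in cells carrying the empty vector. The difference between the 2 lines therefore chose them, and it is given below as a description with no test. The effects of the ligands were not used to choose them and were tested.

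RNA was measured on whole-transcript arrays in H295R, an established steroid-producing line from a human adrenocortical carcinoma. GRα cells held a stably maintained pcDNA4 vector, not inducible, that encodes the alpha isoform of the glucocorticoid receptor, and control cells held that vector without an insert. Each line received dexamethasone at 100 nM, RU486 at 100 nM or the ethanol vehicle for 6 h, after 24 h without serum at 70% confluence. The groups were GRα with dexamethasone (3 arrays), GRα with RU486 (2 arrays), GRα with vehicle (3 arrays), control with dexamethasone (3 arrays), control with RU486 (3 arrays) and control with vehicle (3 arrays). The labels describe the GRα and control cells as 1 stable line each, so an effect of the transgene and any other difference between the lines cannot be told apart. In these bulk samples, fewer cells expressing a gene and less RNA per cell cannot be told apart either.

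The glucocorticoid receptor is a transcription factor that enters the nucleus when it binds a steroid and acts at DNA sites built from copies of a short half-site. Dexamethasone is a synthetic agonist, and RU486 (mifepristone) is an antagonist with partial agonist activity. The stretch is a neighbourhood and not a pathway. It mixes widely used genes for RNA synthesis and decay, ubiquitin chemistry and Golgi transport with genes of restricted tissues, such as the adjacent homeobox genes GSX1, PDX1 and CDX2 and the receptor kinase genes FLT3 and FLT1. FOXO1, the last member, encodes a forkhead factor of insulin signalling and is a known glucocorticoid receptor target in other tissues.

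Values are log2 array signals that the authors deposited, and differences are given as GRα minus control on that log2 scale. NR3C1, which encodes the receptor, was checked first. Its log2 signal ran from 7.90 to 8.11 over the 8 GRα arrays and from 7.23 to 7.46 over the 9 control arrays, so the lines did not overlap. Over all genes, correlations between arrays were 0.987 to 0.997 within a line and 0.971 to 0.977 between the lines. GRα vehicle replicate B had an array weight of 0.194, the lowest of the set. Of 8 adrenocortical markers, 4 (NR5A1, STAR, CYP11A1 and CYP17A1) were above the median level of all genes, and HSD3B2, CYP11B1, CYP11B2 and MC2R were below it. STAR and HSD3B2 were lower in GRα arrays with no overlap between the lines, and the mean over the 8 markers was 7.45 to 7.63 in GRα arrays and 7.74 to 7.94 in control arrays. Of 16 markers of chromaffin, fibroblast, endothelial and leukocyte cells, only COL1A1 was above the median level. Their mean was 5.36 to 5.55 in GRα arrays and 5.24 to 5.41 in control arrays, and CHGA and COL1A1 were higher in every GRα array. The part of these marker differences in the results on the stretch was not tested.

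The 4 promoters below belong to the members that the results turn on: FRY for its response to dexamethasone, FREM2 and DCLK1 for the members farthest apart between the lines in each direction, and FOXO1 as the last member and a known receptor target elsewhere. Each sequence is the 250 bases before a transcription start from RefSeq (GRCh38.p14), written 5′ to 3′ on the gene's strand, with every CG dinucleotide in capitals. FRY lies at chr13:32031524-32031773 on the plus strand, FREM2 at chr13:38686827-38687076 on the plus strand, DCLK1 at chr13:36131383-36131632 on the minus strand and FOXO1 at chr13:40666642-40666891 on the minus strand.
FRY: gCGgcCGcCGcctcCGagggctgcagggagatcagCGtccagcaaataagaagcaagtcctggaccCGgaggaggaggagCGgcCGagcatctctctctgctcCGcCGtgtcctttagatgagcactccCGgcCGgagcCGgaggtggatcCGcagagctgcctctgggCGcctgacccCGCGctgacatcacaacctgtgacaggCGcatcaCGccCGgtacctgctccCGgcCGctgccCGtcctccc
FREM2: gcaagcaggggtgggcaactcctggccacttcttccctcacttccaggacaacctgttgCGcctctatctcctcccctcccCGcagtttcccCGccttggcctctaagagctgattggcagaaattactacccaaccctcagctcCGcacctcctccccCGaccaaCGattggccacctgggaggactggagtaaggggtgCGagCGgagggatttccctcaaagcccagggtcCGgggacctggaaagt
DCLK1: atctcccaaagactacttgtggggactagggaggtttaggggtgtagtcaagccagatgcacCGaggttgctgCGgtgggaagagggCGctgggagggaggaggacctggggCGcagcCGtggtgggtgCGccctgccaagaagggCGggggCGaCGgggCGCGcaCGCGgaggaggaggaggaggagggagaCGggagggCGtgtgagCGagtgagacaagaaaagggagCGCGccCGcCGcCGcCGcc
FOXO1: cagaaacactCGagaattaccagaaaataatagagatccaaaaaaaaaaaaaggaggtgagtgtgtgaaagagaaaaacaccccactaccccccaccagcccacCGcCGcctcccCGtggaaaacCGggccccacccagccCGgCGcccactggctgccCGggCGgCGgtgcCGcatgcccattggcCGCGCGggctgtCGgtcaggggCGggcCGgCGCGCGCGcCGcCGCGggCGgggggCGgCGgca

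These sequences hold 23 CG dinucleotides in FRY, 9 in FREM2, 22 in DCLK1 and 27 in FOXO1. The printed start of DCLK1 was chosen from 3 as that with most CG (27 in a window of 300 bases, against 5 and 2). The receptor half-site was searched as AGAACA or its reverse complement TGTTCT, on both strands, in windows of 300 bases that run from 250 before to 50 after a start. Promoters were matched for 50 of the 55 measured members, with 67 starts. The half-site occurred in 4 of these 67 windows (5.97%), against 14.8% of the 35116 windows of all genes in the same table. The 4 windows belong to RXFP2, SLC46A3, UFM1 and another start of DCLK1, so none of the printed sequences holds the half-site. The paired site (AGAACA, any 3 bases, TGTTCT) was in 0 of the 67 windows and in 1 of the 35116. The median GC content was 64.7% in the members' windows and 58.7% in all windows, with a median of 25 and 14 CG dinucleotides. A match is a description of letters, and a window without one says nothing about binding of the receptor.

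Lower signal in GRα cells was common in the stretch. Over the 55 members, the median difference was -0.56 with dexamethasone, -0.56 with RU486 and -0.58 with vehicle, against -0.02, -0.01 and 0.01 over all 18417 genes. In all, 27 members (49.1%) were lower by at least 0.5 log2 in all 3 treatments, against 3.85% of all genes. Over these 27, the mean difference of the 3 treatments ran from -0.63 to -2.01 with a median of -0.83, which is a 1.78-fold lower signal. Because this contrast picked the members, nothing is read from the comparison with all genes.

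The lower members were mostly those of higher signal level, which is a description too, since the contrast chose the members. A gene is called brighter here when its mean over the 17 arrays was at or above the median of all genes (log2 6.85), and dimmer otherwise. Of 31 brighter members, 26 (83.9%) were lower in all 3 treatments, against 5.06% of all brighter genes. Of 24 dimmer members, 1 was, the lysosomal transporter gene SLC46A3. With the level taken over the GRα arrays alone, a split made after seeing the data, 23 of 30 members at or above the median and 4 of 25 below it were lower. MTIF3, UBL3 and NBEA thus counted as brighter only through their control arrays. The other way, FREM2 and SMAD9 counted as dimmer but stood above the median level of 6.84 in the GRα arrays. Their medians were 6.98 and 6.91 over GRα arrays and 5.03 and 6.78 over control arrays. The median difference of the brighter members was -0.78 with dexamethasone, -0.82 with RU486 and -0.80 with vehicle. The dimmer members had medians of -0.03 with dexamethasone, 0.07 with RU486 and 0.08 with vehicle. Over the 55 members, which share the same arrays, mean level and mean difference correlated at a Pearson coefficient of -0.657 and a Spearman coefficient of -0.713. Whether the dimmer probe sets were above background was not tested.

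**Figure D1:**
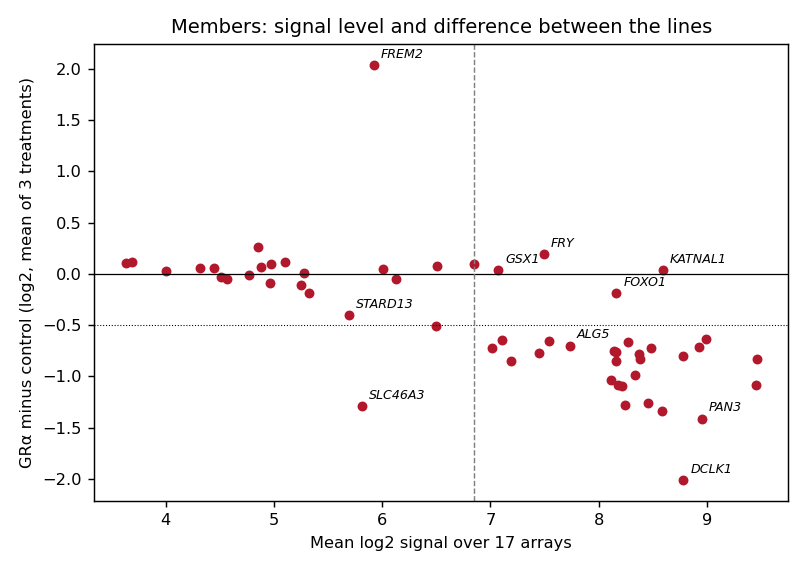
Each point is 1 of the 55 measured members, with its mean log2 signal over 17 arrays on the horizontal axis and the log2 difference between the lines (GRα minus control, mean of 3 treatments) on the vertical axis. The dashed line marks the median level of all genes (6.85) and the dotted line a difference of -0.5. Most members right of the dashed line lie below the dotted line, and DCLK1 (-2.01) and FREM2 (2.04) are the extremes.

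The difference is described here by single arrays, and these same arrays chose the members. In 30 members, every GRα array was below every control array (12.4% of all genes), and 27 of these 30 were brighter members. FREM2 was the single member in which every GRα array was above every control array (10.0% of all genes), and the other 24 members overlapped. Set against the mean of the vehicle-treated control arrays, the median of the 31 brighter members lay between -0.72 and -0.86 in each of the 8 GRα arrays and between -0.07 and 0.07 in each of the 9 control arrays. GRα vehicle replicate B was at -0.85, within the range of its line.

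The difference was alike in the 3 treatments. Among the 27 lower members, the spread between the largest and smallest of the 3 differences had a median of 0.11 and reached at most 0.30 log2. Across the 55 members, the differences with dexamethasone and with vehicle correlated at 0.966, those with RU486 and vehicle at 0.982, and those with dexamethasone and RU486 at 0.976. These contrasts use separate arrays of the same 2 lines, and over all genes the first of these correlations was 0.906.

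**Figure D2:**
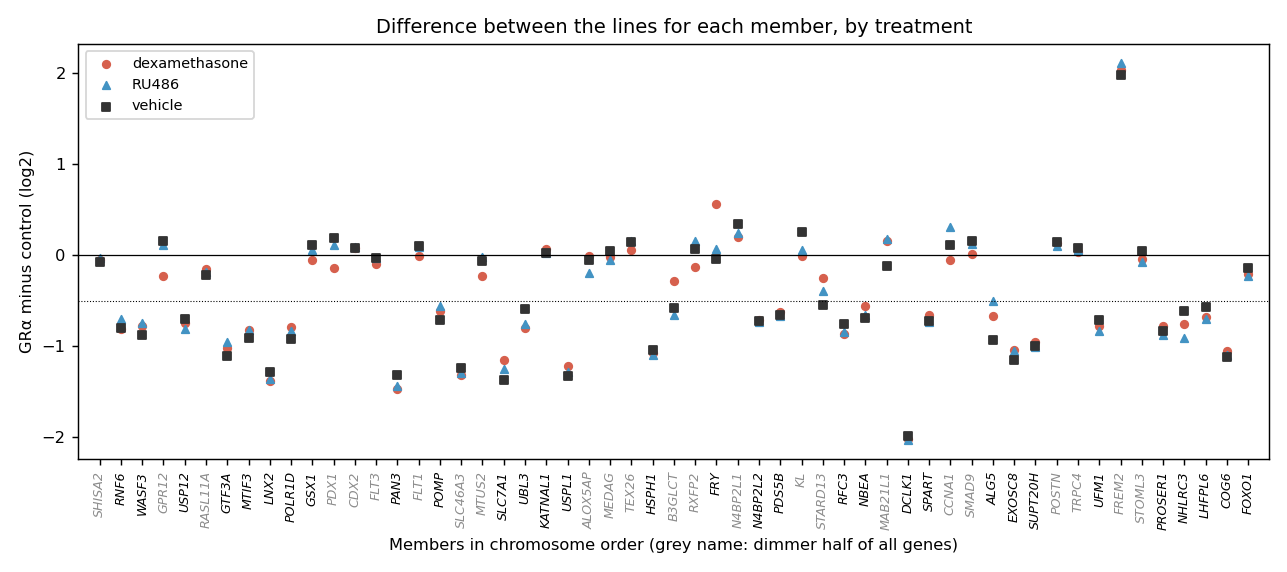
The log2 difference between the lines (GRα minus control, vertical axis) is shown for the 55 members in chromosome order, with 1 symbol for each treatment. Grey names mark members below the median level of all genes. The 3 symbols of a member mostly lie together, FRY and ALG5 being among those that spread, and the dimmer members lie near 0 except SLC46A3, B3GLCT, STARD13 and FREM2.

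Members with roles in transcription, RNA, chromatin and DNA were lower in GRα cells in 9 of 10 cases (3.85% of all genes). The exception was the dim cyclin A1 gene CCNA1. The 9 were all brighter members, so role and signal level cannot be told apart here either, and they had a median of -0.85. PAN3, a subunit of the nuclease that shortens poly(A) tails, had signals of 8.04, 8.17 and 8.13 in GRα cells with dexamethasone, 8.26 and 8.22 with RU486 and 8.28, 8.13 and 8.33 with vehicle. In control cells PAN3 had 9.61, 9.62 and 9.54 with dexamethasone, 9.73, 9.69 and 9.61 with RU486 and 9.57, 9.54 and 9.59 with vehicle. The highest GRα array was thus below the lowest control array, and the difference of -1.32 in vehicle is a 2.50-fold lower signal.

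EXOSC8, a subunit of the RNA exosome, differed by -1.04 with dexamethasone, -1.05 with RU486 and -1.15 with vehicle. GTF3A, the factor that starts transcription of 5S ribosomal RNA genes, differed by -1.02, -0.96 and -1.11 in the same order. The SAGA complex subunit gene SUPT20H differed by -0.96, -1.01 and -1.0. The lines did not overlap in any of these 3 genes. Smaller differences stood in POLR1D, a subunit shared by RNA polymerases I and III (-0.92 with vehicle), in the mitochondrial initiation factor gene MTIF3 (-0.91), in PROSER1 (-0.83), in the clamp loader subunit gene RFC3 (-0.76) and in the cohesin regulator gene PDS5B (-0.66).

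Genes of protein modification, folding and secretion separated the lines throughout. All 11 had every GRα array below every control array (12.4% of all genes). Of them, 9 were lower by at least 0.5 log2 in all 3 treatments (3.85% of all genes). Since 10 of the 11 were brighter members, role and signal level cannot be told apart here. The ubiquitin ligase gene LNX2 ran from 7.75 to 7.97 over GRα arrays and from 9.15 to 9.32 over control arrays. Its difference was -1.38 with dexamethasone, -1.36 with RU486 and -1.28 with vehicle. USPL1, which encodes a SUMO protease, ran from 7.22 to 7.72 over GRα arrays and from 8.68 to 9.0 over control arrays, with -1.33 in vehicle (2.52-fold lower). Both genes therefore sat more than 1 log2 apart between the lines in every treatment.

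The chaperone gene HSPH1, at 9.45 among the brightest members, ran from 8.80 to 8.97 over GRα arrays and from 9.81 to 10.09 over control arrays. COG6, a subunit of a Golgi tethering complex and the neighbour of FOXO1 among the members, differed by -1.05 with dexamethasone, -1.10 with RU486 and -1.12 with vehicle. RNF6, a ubiquitin ligase gene and the first bright member, differed by -0.81, -0.70 and -0.80 in the same order. The ubiquitin-like genes UFM1 (-0.71 with vehicle) and UBL3 (-0.59), the deubiquitinase gene USP12 (-0.70) and the proteasome assembly gene POMP (-0.71) were also lower in all 3 treatments. ALG5, a glucosyltransferase of N-glycan assembly, just missed the limit, with -0.67 with dexamethasone, -0.50 with RU486 and -0.93 with vehicle. B3GLCT, another glucosyltransferase gene, had -0.29, -0.66 and -0.58.

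Of 12 genes of the cytoskeleton, membranes, transport and matrix, 6 were lower in all 3 treatments (3.85% of all genes). SLC7A1, a cationic amino acid transporter, had signals of 7.79, 7.80 and 7.87 in GRα cells with dexamethasone, 7.85 and 7.74 with RU486 and 7.95, 7.50 and 7.79 with vehicle. In control cells it had 8.94, 9.04 and 8.93 with dexamethasone, 9.10, 9.07 and 8.96 with RU486 and 9.09, 9.17 and 9.09 with vehicle. No array of one line reached the other, and the difference in vehicle was -1.37.

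SLC46A3 was dim and yet separated the lines, with 4.96 to 5.38 over GRα arrays and 6.32 to 6.47 over control arrays. The actin regulator gene WASF3 (-0.88 with vehicle), the spartin gene SPART (-0.72), the trafficking gene NBEA (-0.69) and LHFPL6 (-0.57) completed the 6. KATNAL1, which encodes a microtubule-severing katanin subunit, was among the brighter members and did not differ in this way. Its arrays ran from 8.50 to 8.75 in GRα cells and from 8.44 to 8.65 in control cells, with differences of 0.07 with dexamethasone, 0.02 with RU486 and 0.02 with vehicle. UBL3 and USPL1, the nearest measured members on its 2 sides, were lower in all 3 treatments. FRY differed by 0.56 with dexamethasone, 0.07 with RU486 and -0.04 with vehicle. The dim genes MTUS2 (-0.07 with vehicle), POSTN (0.14) and STOML3 (0.04) overlapped between the lines.

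FREM2, which encodes an extracellular matrix protein of basement membranes, went the other way. It had 6.94, 7.02 and 6.72 in GRα cells with dexamethasone, 7.17 and 7.20 with RU486 and 6.91, 6.75 and 7.17 with vehicle. In control cells FREM2 had 4.98, 4.74 and 4.87 with dexamethasone, 5.11, 5.09 and 5.03 with RU486 and 4.81, 5.06 and 5.03 with vehicle. The lines stood 2.03 log2 apart with dexamethasone, 2.11 with RU486 and 1.98 with vehicle (3.94-fold higher in GRα cells), without overlap. It was the single member higher in GRα cells by at least 0.2 log2 in all 3 treatments, while UFM1 and PROSER1, the nearest brighter members on its 2 sides, were lower. The dim gene N4BP2L1 was just under that limit, with 0.20, 0.24 and 0.34.

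Receptors, channels and signalling genes were mostly dim, and 1 of 11 was lower in all 3 treatments (3.85% of all genes). That gene was DCLK1, a doublecortin-like kinase that binds microtubules, with the largest negative difference of the stretch. DCLK1 had 7.58, 7.83 and 7.54 in GRα cells with dexamethasone, 7.63 and 7.78 with RU486 and 7.70, 7.76 and 7.85 with vehicle. In control cells it had 9.67, 9.68 and 9.66 with dexamethasone, 9.82, 9.66 and 9.72 with RU486 and 9.81, 9.75 and 9.73 with vehicle. The lines did not overlap in any treatment, and the signal with vehicle was 3.98-fold lower in GRα cells.

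STARD13 was dim and lower in every GRα array, with -0.25 with dexamethasone, -0.40 with RU486 and -0.55 with vehicle. The other 9 genes of this group overlapped between the lines, as did 14298 of all 18417 genes. They include SHISA2, the first member (-0.05, -0.03 and -0.08), the growth factor receptor genes FLT1 (0.10 with vehicle) and FLT3 (-0.03), the klotho gene KL (0.25), the leukotriene pathway gene ALOX5AP (-0.06), the orphan receptor gene GPR12 (0.15), the relaxin family receptor gene RXFP2 (0.07), the cation channel gene TRPC4 (0.08) and RASL11A (-0.22).

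None of the 6 developmental regulators was lower in all 3 treatments (3.85% of all genes). All 6 overlapped between the lines, as did 14298 of all 18417 genes. Of the 6, 2 were brighter members, and nothing about the role is read from these counts. FOXO1 had 8.06, 8.11 and 8.12 in GRα cells with dexamethasone, 8.01 and 7.93 with RU486 and 7.97, 8.29 and 8.06 with vehicle. In control cells FOXO1 had 8.20, 8.35 and 8.35 with dexamethasone, 8.12, 8.24 and 8.24 with RU486 and 8.30, 8.25 and 8.19 with vehicle. Its differences of -0.21 with dexamethasone, -0.23 with RU486 and -0.14 with vehicle put it among the 5 brighter members that were not lower by 0.5 log2 in all 3 treatments, with KATNAL1, GSX1, FRY and ALG5. The homeobox genes GSX1 (0.11 with vehicle), PDX1 (0.19) and CDX2 (0.08), SMAD9 (0.15) and MAB21L1 (-0.12) lay near 0.

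For 5 members no role is given here. N4BP2L2 (-0.72 with vehicle) and NHLRC3 (-0.61) were bright and lower in all 3 treatments, while MEDAG (0.04), TEX26 (0.14) and N4BP2L1 (0.34) were dim and overlapped. A further probe set of USP12 differed by -0.66 with dexamethasone, -0.53 with RU486 and -0.62 with vehicle, and a dimmer one of UFM1 by -0.24, -0.18 and -0.70. The further probe set of N4BP2L1 gave 0.19, -0.05 and -0.23, so the 2 probe sets of that gene disagree in sign with RU486 and with vehicle.

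Of the 4 members that were not measured, 3 share their probe set with other genes. The probe set that CDK8 shares with ADRA1B differed by -0.64 with dexamethasone, -0.57 with RU486 and -0.64 with vehicle. The one that HMGB1 shares with CTCFL and SP100 gave -0.36, -0.38 and -0.34, and the one that SOHLH2 shares with CCDC169-SOHLH2 gave -0.03, -0.08 and -0.24. The remaining member is not analysed here.

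**Figure D3:**
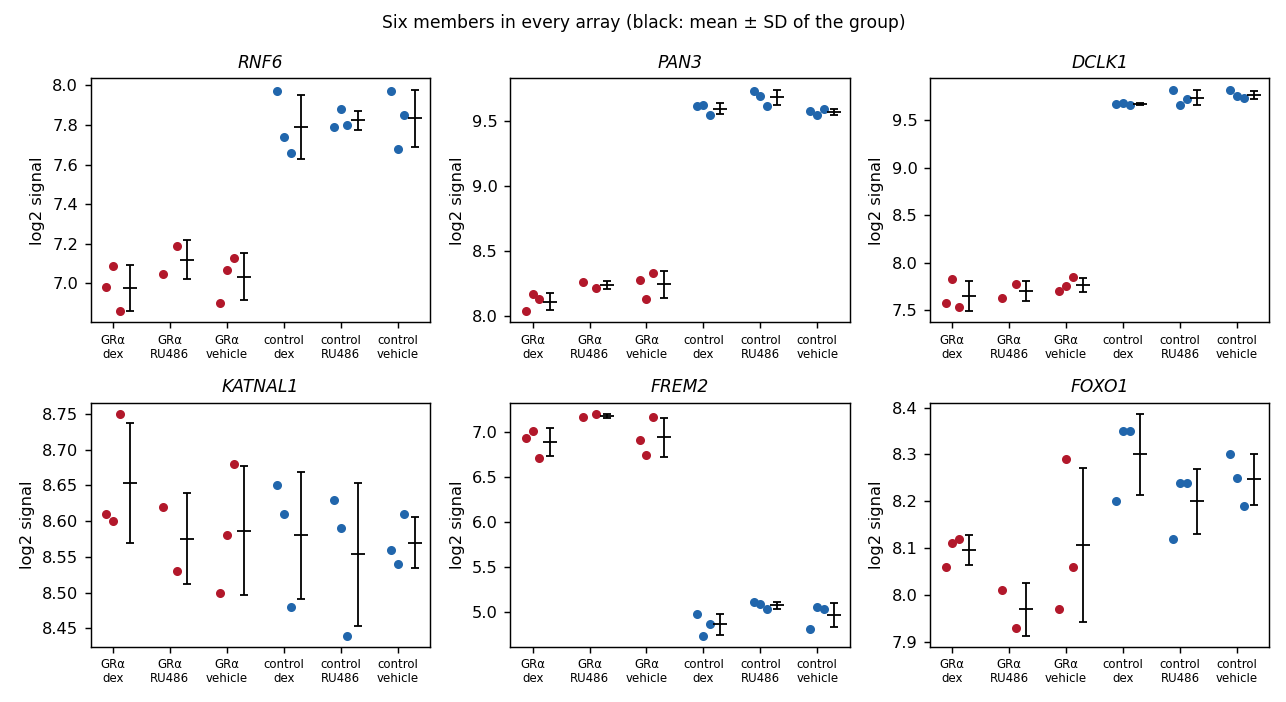
Points are the log2 signals of 6 members in each of the 17 arrays, GRα groups in red on the left and control groups in blue on the right of each panel, with the mean and SD of each group in black. The vertical axes are log2 and differ between panels. RNF6, PAN3 and DCLK1 are lower in every GRα array, FREM2 is higher in every GRα array, and KATNAL1 and FOXO1 overlap.

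The lower signal set in near the proximal end of the stretch and went on past its distal end. The step at the proximal end is a description, since the contrast chose the stretch. Of the 5 measured genes just before SHISA2, MTMR6 was higher in GRα cells (0.31 with dexamethasone, 0.31 with RU486 and 0.40 with vehicle) and so was the nucleoporin gene NUP58 (0.20, 0.17 and 0.20). PABPC3 (0.15 with vehicle), AMER2 (0.27) and ATP8A2 (0.13) overlapped between the lines. None of the 24 brighter genes between the start of the measured chromosome and SHISA2 was lower by at least 0.5 log2 in all 3 treatments (5.06% of all brighter genes). Their median difference was -0.08. Of these 24, 6 still had every GRα array below every control array (12.4% of all genes), and 6 had every one above (10.0%). Among the dimmer genes before SHISA2, FGF9 (-1.04 with vehicle) and LINC00417 (-1.29) were lower in all 3 treatments. RNF6, the second measured gene of the stretch, was at -0.80 with vehicle.

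Past FOXO1, the mitochondrial ribosomal gene MRPS31 differed by -1.04 with dexamethasone, -0.98 with RU486 and -0.89 with vehicle. The mitochondrial ornithine carrier gene SLC25A15 gave -1.05, -0.97 and -0.96, KBTBD6 gave -0.77, -0.87 and -0.64, WBP4 gave -0.50, -0.76 and -0.84, and ELF1 gave -0.08, -0.47 and -0.48. Of the 106 brighter genes after FOXO1, 63 (59.4%) were lower by at least 0.5 log2 in all 3 treatments, with a median of -0.70. Taken in 4 successive blocks of 26 or 27 genes towards the end of the chromosome, these genes had medians of -0.79, -0.71, -0.90 and -0.53. The 10 brighter genes just before the stretch had a median of 0.24 and the 10 just after it one of -0.83.

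Within the stretch the level was even, with medians of -0.83, -0.72 and -0.78 over the brighter members of its first, middle and last portions (10, 10 and 11 genes). Of 13 measured genes that lie between members without being listed, 3 were lower in all 3 treatments (3.85% of all genes). All 3 were dimmer. RFXAP, a subunit of the factor that activates MHC class II promoters, differed by -0.90 with vehicle. The small nucleolar RNA genes SNORA27 and SNORD102 differed by -0.79 and -0.69. The 2 brighter genes of the 13, ATP5F1EP2 (-0.24 with vehicle) and EEF1DP3 (0.19), overlapped between the lines. Among chromosomes, the 163 brighter genes of chromosome 13 had a median of -0.65 over the 3 treatments. Chromosome 21 followed with -0.43, chromosome 15 stood highest at 0.49, and the others lay between -0.13 and 0.14. Runs of 55 consecutive measured genes of any level were also described, although low runs chose the stretch. Of 17123 such runs, 9 had a median at or below the -0.63 of the 55 members, 8 of them on chromosome 13. The lowest run on another chromosome, chromosome 19, had a median of -0.63. The members leave out the 13 measured genes between them, so they are not such a run and the 2 medians cover unlike sets. Genomic DNA of the lines is not analysed here.

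**Figure D4:**
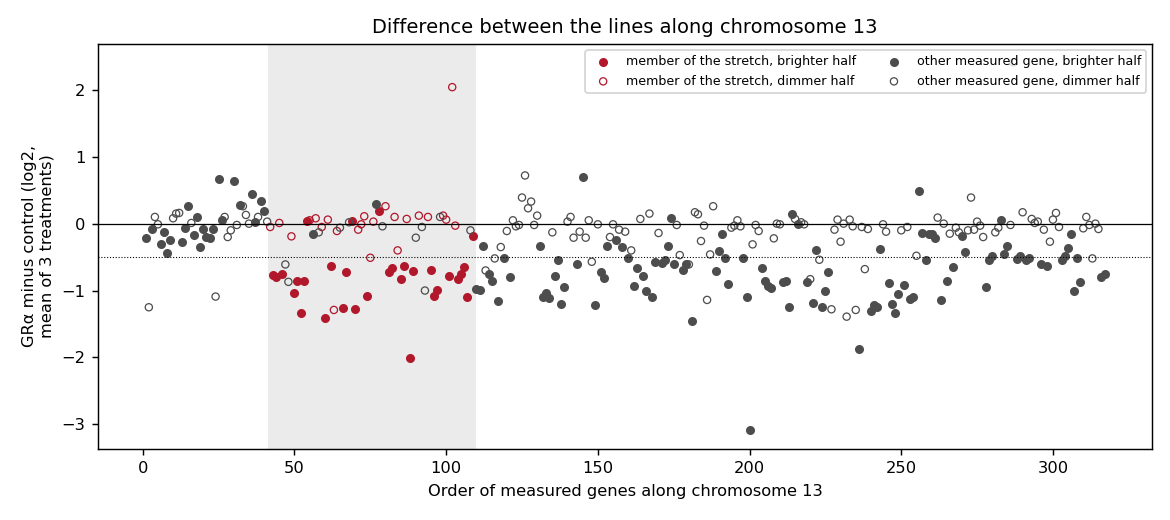
The log2 difference between the lines (GRα minus control, mean of 3 treatments) is plotted against the order of the 317 measured genes along chromosome 13, with the stretch shaded and its members in red. Filled points are genes at or above the median level of all genes, and the dotted line marks -0.5. Filled points lie around 0 before the stretch (median -0.08) and mostly below 0 from its start to the end of the chromosome (median -0.70 after it).

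Dexamethasone was compared with vehicle within each line, and the adjusted p-values below are from limma over all 18417 genes. In GRα cells, 2 of 55 members were called (2.02% of all genes), FRY upward and PDX1 downward, and 8 members had an unadjusted p under 0.05, as had 15.3% of all genes. FRY encodes a large protein of the mitotic spindle and cell shape. In GRα cells its signal was 8.21, 8.34 and 8.25 with dexamethasone, 7.31 and 7.19 with RU486 and 7.36, 6.84 and 7.40 with vehicle. The dexamethasone arrays stood apart from all others of that line, and vehicle replicate B was low. FRY rose by 1.06 ± 0.11 (SE) log2, or 2.09-fold (limma adjusted p = 1.15e-05). Without vehicle replicate B the rise was 0.89 (limma adjusted p = 1.25e-06).

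PDX1, the homeobox gene of pancreas development, was dim. It had 5.87, 5.71 and 5.91 with dexamethasone and 6.22, 6.29 and 6.04 with vehicle in GRα cells, a difference of -0.35 ± 0.08 (SE) log2 with a limma adjusted p of 0.0222. The call did not hold without vehicle replicate A (adjusted p = 0.0717) or B (0.0881) or without dexamethasone replicate A (0.051) or B (0.126). It was also lost with array weights (0.0618) and when only the groups compared were fitted (0.274). PDX1 is below the median level of all genes, and its detection above background was not tested.

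In control cells, 0 of 55 members were called with dexamethasone by limma (0.261% of all genes), and 2 had an unadjusted p under 0.05, FRY and STARD13 (4.91% of all genes). FRY had 7.72, 7.72 and 7.68 with dexamethasone, 7.22, 7.20 and 7.13 with RU486 and 7.30, 7.15 and 7.28 with vehicle in these cells. The dexamethasone arrays did not overlap the others, with a difference of 0.46 ± 0.11 (SE) log2 and a limma adjusted p of 0.117. FRY was called in this comparison with the trend and robust options of eBayes (adjusted p = 0.0247), with array weights (0.00129) and when only the groups compared were fitted (0.0406). STARD13 differed by -0.24 ± 0.07 (SE) log2 (limma adjusted p = 0.389), with 5.74, 5.72 and 5.79 with dexamethasone and 6.09, 5.90 and 5.99 with vehicle.

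The difference between the lines in the dexamethasone effect was tested directly. For FRY it was 0.60 ± 0.15 (SE) log2, larger in GRα cells, and for PDX1 -0.33 ± 0.11, with limma adjusted p of 0.268 and 0.482. No member was called by limma (0.0652% of all genes were), and 4 had an unadjusted p under 0.05 (7.39% of all genes). Without GRα vehicle replicate B the FRY value was 0.42. The larger FRY value in GRα cells thus did not pass the test of the difference.

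RU486 against vehicle gave no call for a member, in GRα cells (0% of all genes called by limma) or in control cells (0% of all genes). Unadjusted p-values were under 0.05 for 5 members in GRα cells (8.54% of all genes) and for 2 in control cells (3.37% of all genes). The lowest in GRα cells were those of ALG5, at 0.34 ± 0.11 (SE) log2, and NHLRC3, at -0.25 ± 0.10, with limma adjusted p of 0.513 and 0.547. ALG5 had 7.32 and 7.71 with RU486 and 7.11, 7.04 and 7.39 with vehicle in GRα cells, and these overlapped. The lowest in control cells were those of the periostin gene POSTN, at 0.20, and of TRPC4, at -0.24, each with a limma adjusted p of 0.999. The RU486 effect differed between the lines in no member by limma (0% of all genes), with 2 unadjusted p-values under 0.05 (4.05% of all genes) and the largest difference in ALG5, at 0.43 ± 0.14 (SE) log2 (limma adjusted p = 0.999). With 2 arrays in the GRα RU486 group, small effects may not be detectable.

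Dexamethasone was also set against RU486 at the same dose and time. In GRα cells FRY was the single member called (0.896% of all genes), higher with dexamethasone by 1.01 ± 0.12 (SE) log2, or 2.02-fold (limma adjusted p = 0.00012), and 6 members had an unadjusted p under 0.05 (8.85% of all genes). In control cells FRY was again the single member called (0.364% of all genes), by 0.52 ± 0.11 (SE) log2 (limma adjusted p = 0.0398), and 3 members had an unadjusted p under 0.05 (5.98% of all genes). These unadjusted counts lay near the shares over all genes. The call in control cells did not survive leaving out any of the 6 arrays compared, with adjusted p between 0.13 and 0.179. The comparisons with vehicle and with RU486 share the dexamethasone arrays of a line.

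**Figure D5:**
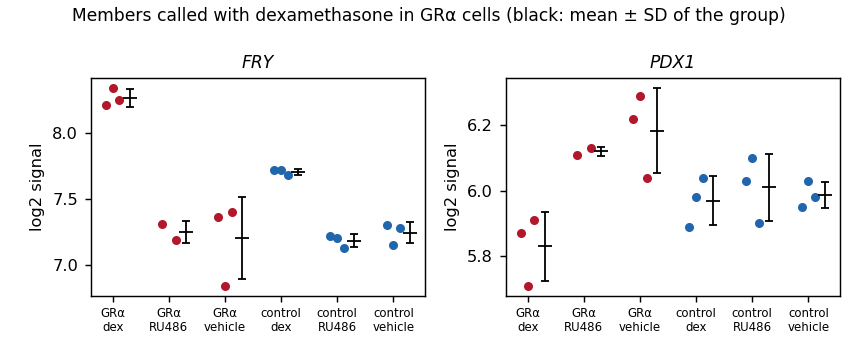
Points are the log2 signals of FRY and PDX1 in each of the 17 arrays, GRα groups in red on the left and control groups in blue on the right, with the mean and SD of each group in black. The vertical axes are log2 and differ between panels. FRY is highest in the 3 GRα arrays with dexamethasone (8.21 to 8.34), followed by the 3 control arrays with dexamethasone (7.68 to 7.72), and PDX1 has its lowest group mean with dexamethasone in GRα cells (5.83).

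FOXO1 gave no call with either ligand. Dexamethasone minus vehicle was -0.01 ± 0.08 (SE) log2 in GRα cells and 0.05 ± 0.08 in control cells, with limma adjusted p of 0.974 and 1.0. The medians over the members were -0.01 for dexamethasone in GRα cells and 0.03 for RU486 in GRα cells, where all genes had -0.01 in both.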

How the data were processed

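Deposited values were log2 signals of 29153 probe sets on 17 of 18 described arrays, and the column of GRα RU486 replicate A is empty (a failure of quality control, per the labels). Per the submitters' processing notes, the authors used RMA, which normalizes arrays to 1 distribution, and limma. Their versions and the build are not given in the sources read. No 2 arrays held identical values. Probe sets were named from the platform annotation and RefSeq (GRCh38.p14), which matched 19429 of 19460 probe sets with 1 symbol. The 1754 with several symbols and the 7939 with none were left out of the tests. Where a gene had several probe sets (769 genes), that of highest mean level represented it, leaving 18417 genes. RefSeq served for names, gene order and promoters.

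All contrasts came from 1 limma fit (limma 3.58.1, R 4.3.3) of 6 group means over 17 arrays, and had 11 residual degrees of freedom (5.89 prior). Calls were two-sided at an adjusted p (Benjamini-Hochberg, all genes) under 0.05, and the fit was tested on simulated data. The labels call samples biological replicates without saying that they were separate cultures, and p-values therefore measure only the spread among these samples, possibly technical. With 2 or 3 arrays in a group, their number limits the precision.

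The members, role groups, markers and tests were chosen with earlier results of these data known. Named are NR3C1, FOXO1, members called with a ligand or the 2 of lowest p, the 12 members with the largest line difference, any member higher by 0.2 log2 in all 3 treatments, the ends of the stretch and the 5 measured genes beyond each end. Other members are given by role, and KATNAL1, RNF6 and those near the 0.5 log2 limit were singled out after their values were seen. Alternatives were another quantile normalization, median centring, the mean of a gene's probe sets, leaving out dim genes, eBayes options, array weights, a fit of the compared groups alone, a block for the replicate letter and leaving out each array.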

Additional observations from a re-analysis of the deposited data

How the results depend on the processing

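Line differences of single members were run under the alternatives only for FREM2, DCLK1, PAN3, LNX2, SLC46A3, USPL1, SLC7A1, COG6, EXOSC8, HSPH1, GTF3A, SUPT20H, SHISA2 and FOXO1. For the other members named with a line difference, its direction under the alternatives was not tested. Among the line differences run, none past 0.2 log2 changed direction, and no called ligand effect did. Values near 0 did: SHISA2 ran from -0.11 to 0.04 with dexamethasone and -0.10 to 0.04 with RU486 between the lines, and FOXO1 from -0.08 to 0.08 for dexamethasone in GRα cells. The median line difference of the members with vehicle was -0.72 without the dimmest genes and -0.80 over the brighter members, and -0.60 to -0.54 when 1 array was left out. With dexamethasone it was -0.51 with the mean of a gene's probe sets, -0.76 without the dimmest genes and -0.78 over the brighter members, and -0.58 to -0.54 without 1 array. With RU486 it was -0.53 after median centring, -0.51 with the mean of probe sets, -0.75 without the dimmest genes and -0.82 over the brighter members, and -0.59 to -0.41 without 1 array, where -0.41 is the value without GRα RU486 replicate B (the lone array left there is taken to vary as other groups do). The 27 members lower in all 3 treatments were 26 to 28 without 1 array (chosen after seeing the data). Members called with dexamethasone against vehicle in GRα cells were 1 with array weights and when only the groups compared were fitted, and 1 to 2 without 1 array. In control cells they were 1 with trend and robust eBayes, with array weights and when only the groups compared were fitted. For dexamethasone against RU486 in control cells, 0 members were called with the replicate block (FRY 0.52, adjusted p = 0.0656) and 0 to 0 without 1 array. Of 40 pairs of arrays with the same letter, 5 correlated above 0.1 (r -0.254 to 0.324), so the letters were not taken as pairs, and the replicate block changed no other call. The signal over background of the 24 dimmer members limits what their differences can show.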
